A study of Mus musculus with 42 samples.

Results

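The 10 genes described here are the osteoblast transcription factors Runx2 and Sp7, the mineralisation enzymes Alpl, Enpp1 and Phex, the mineral inhibitor Mgp, and the genes of bone matrix proteins Ibsp, Dmp1, Bglap and Bglap2. They were chosen by symbol, as 10 of the 36604 genes listed in the count table of mouse joint soft tissue, and their levels were read in all 24 libraries of that table. All animals were labelled C57BL/6 and wild type. Joint soft tissue labelled RST was taken on days 3, 7, 14, 21 and 35, and tissue labelled LST on day 35, with 4 libraries in each of the 6 groups. The series' own description places the samples in repair of tissue after an operation, the labels do not spell out RST or LST, and neither age nor sex is given. A second table holds 18 lymph node libraries, with 3 in each of the groups NoImplant, ContraImplant and Implant on days 7 and 14. Implant nodes were labelled implant and surgery, ContraImplant nodes implant without surgery, and NoImplant nodes neither. By animal number, the ContraImplant and Implant nodes of a day came from the same mice.

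Bone mineral forms where osteoblasts lay down collagen and supply phosphate. Runx2 commits precursor cells to the osteoblast and hypertrophic cartilage lineages, and Sp7, also called osterix, acts after it. Tissue-nonspecific alkaline phosphatase, the product of Alpl, breaks down pyrophosphate, an inhibitor of mineral that the product of Enpp1 makes from nucleotides outside the cell. Matrix Gla protein, from Mgp, keeps cartilage and vessels free of mineral, while bone sialoprotein (Ibsp), osteocalcin (Bglap and Bglap2) and dentin matrix protein 1 (Dmp1) are deposited in bone. Dmp1 and Phex, an endopeptidase, are best known from osteocytes, the cells buried in bone, where they restrain the phosphate hormone Fgf23. In joint soft tissue, tendon, fibrous tissue and cartilage express some of these genes without making bone.

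Bglap and Bglap2 are neighbouring copies on chromosome 3, and a read from one often cannot be told from a read from the other. Their coding sequences of 288 bases differ at 4 positions, an identity of 98.61%, and 3 of the 4 differences lie in the first coding exon. That exon is printed here for both copies, on the minus strand of mm10, at chr3:88384352-88384415 for Bglap and chr3:88378587-88378650 for Bglap2, because it holds most of what separates them. Capitals mark the bases that differ.
Bglap: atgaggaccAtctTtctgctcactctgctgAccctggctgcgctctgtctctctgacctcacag
Bglap2: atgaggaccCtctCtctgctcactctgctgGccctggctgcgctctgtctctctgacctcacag
Windows of 50 bases were taken along a single annotated spliced transcript of each copy. Of these, 74.68% for Bglap and 88.15% for Bglap2 were shared with another osteocalcin copy. Of 100-base windows, 56.3% and 56.99% were shared. The split of osteocalcin reads between the copies is therefore uncertain, and the counts of Bglap, Bglap2 and a further copy, Bglap3, were also tested as a sum.

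Depth ranged from 17842090 to 28024003 counts per joint library. Levels are given as CPM, counts scaled to a common library size, with TMM factors that correct for libraries dominated by a few genes. Differences were tested with edgeR's quasi-likelihood test in 1 fit of all 24 libraries, with Benjamini-Hochberg adjustment over the 16149 genes tested and a threshold of 0.05. All 10 genes were among those tested. LST was sampled on day 35 only, so for RST days 3 to 21 the tissue label and the day differ together and cannot be told apart. The labels do not say whether RST and LST libraries of day 35 came from the same animals, and the fit did not pair them. Nor do they say whether the 4 libraries of a group came from separate animals. The p-values then reflect no more than the scatter among these libraries, part of which may be technical. In these bulk samples, fewer cells of a type and less RNA per cell cannot be told apart.

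The members did not move as a block. Enpp1, Mgp and Runx2 were higher in RST than in LST on day 3 and up to day 21, Sp7 and Ibsp were higher on days 7 and 14, Alpl was lower early, and osteocalcin was lowest on day 3. Against LST, 3 of the 10 genes passed the test as higher and 3 as lower on day 3, when 68.7% of all genes tested passed, 38.6% as higher and 30.1% as lower. On day 7, 5 were higher and 1 lower, with 76.1% of all genes passing (41% higher, 35.1% lower). On day 14, 6 were higher and none lower, with 57.9% passing (33.4% higher, 24.5% lower). The members' counts on days 3, 7 and 14 lie near these high backgrounds. On day 21, 5 were higher and none lower, against 27.1% of all genes (21.7% higher, 5.42% lower). The number passing in either direction was 3 without LST replicate 4 and 8 without RST day 21 replicate 3. Those 8 include Alpl as lower (log2 difference −0.62). On day 35, 2 were higher and none lower, against 2.97% (2.92% higher, 0.0495% lower). All 5 comparisons share the 4 LST libraries. The median log2 difference of the 10 genes from LST was 0.47 on day 3, 2.03 on day 7, 2.55 on day 14, 1.80 on day 21 and 0.75 on day 35, where the median over all genes tested lay between 0.02 and 0.09.

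**Figure D1:**
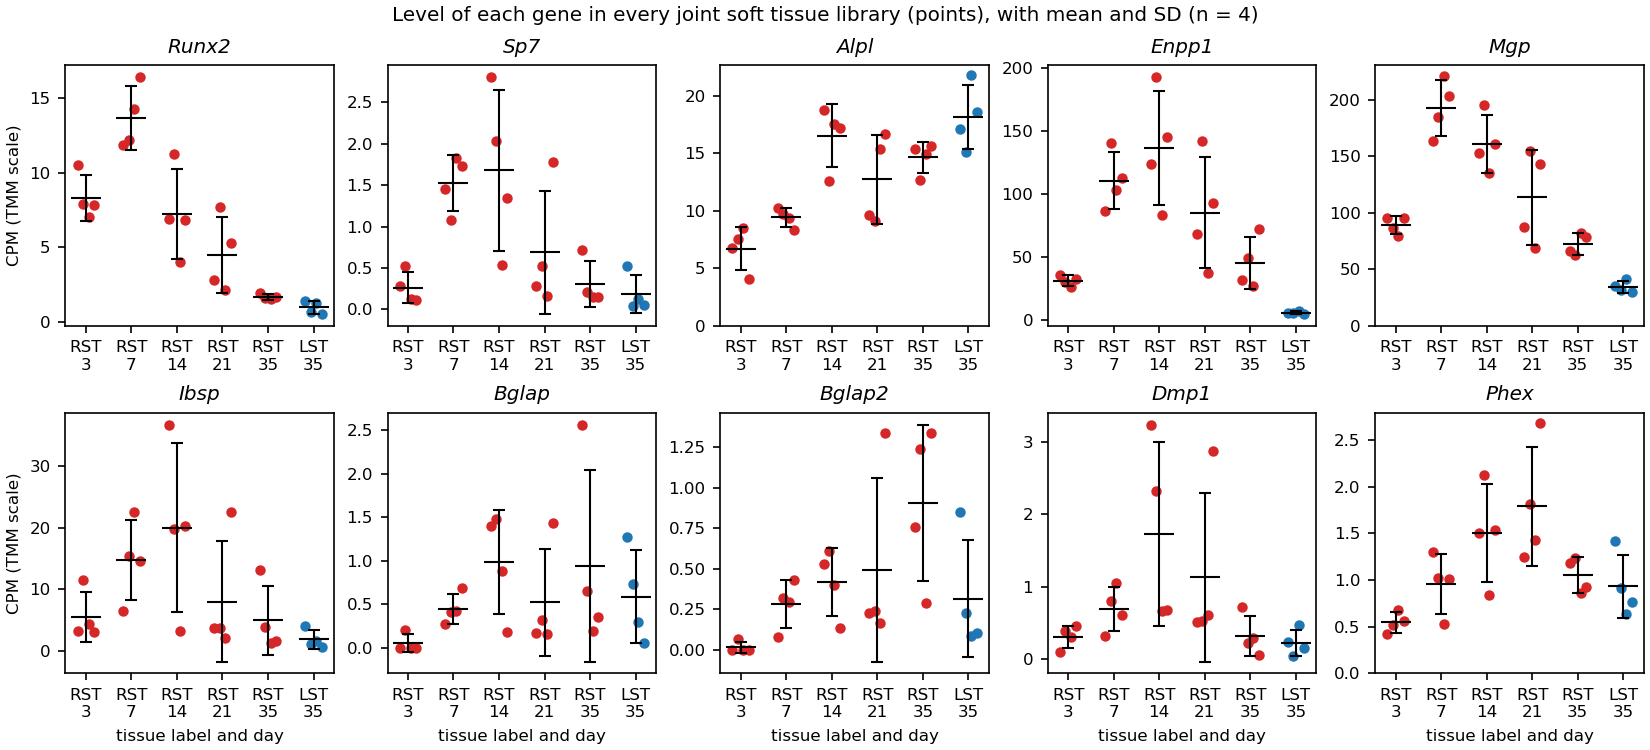
Level of each gene in every joint soft tissue library, in TMM-scaled CPM on a linear axis of its own (red points: RST by day; blue points: LST day 35), with the mean (bar) and SD (whiskers, n = 4). Runx2 and Mgp have their highest means on RST day 7 and Enpp1 on day 14, Alpl has its highest mean in LST (18.2 CPM), and single libraries stand high for Ibsp, Bglap and Dmp1.

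Runx2 (ENSMUSG00000039153, chr17:44495987-44814797, minus strand of mm10) was highest on RST day 7. Its 4 LST libraries held 1.41, 0.638, 1.28 and 0.512 CPM. On RST day 3 they held 10.5, 7.89, 7.01 and 7.81 CPM, on day 7 11.9, 12.2, 14.3 and 16.4 CPM, and on day 14 6.87, 11.3, 3.99 and 6.79 CPM. Every library of these 3 days lay above all LST libraries, and the day 7 libraries lay above all those of days 3 and 14. On day 21 the values were 2.77, 7.70, 2.14 and 5.302 CPM, and on day 35 1.95, 1.56, 1.53 and 1.64 CPM. The day 35 libraries lay close together and still above the highest LST library. The log2 difference from LST was 3.09 ± 0.37 (SE, adjusted p = 1.83e-07) on day 3, 3.81 ± 0.37 (6.27e-09) on day 7, 2.90 ± 0.37 (1.25e-06) on day 14 and 2.23 ± 0.38 (1.33e-04) on day 21. On day 35 it was 0.78 ± 0.41 and did not pass (adjusted p = 0.479), although no RST library overlapped LST.

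Between sampled days, Runx2 was 1.65-fold higher on day 7 than on day 3 without passing (adjusted p = 0.0557). It fell by 0.91 ± 0.30 on the log2 scale from day 7 to day 14 (adjusted p = 0.0201) and by 1.44 ± 0.36 from day 21 to day 35 (adjusted p = 0.029). Both of these calls depended on single libraries. The first was lost without day 14 replicate 3 (−0.71), day 14 replicate 4 (−0.88) or day 7 replicate 4 (−0.81), and the second without any of 5 libraries, namely day 21 replicate 2 (−1.03) or 4 (−1.36) and day 35 replicate 1 (−1.52), 2 (−1.41) or 3 (−1.40).

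The 250 bases upstream of the Runx2 start in the RefSeq table (GRCm38.p6, chr17:44814628-44814877, minus strand) are shown because the product of this gene binds a short core sequence that is also present here. The letters TGTGGT, or ACCACA on the other strand, were searched in both orientations. They occur once, 80 bases before the start, and are in capitals.
Runx2 upstream: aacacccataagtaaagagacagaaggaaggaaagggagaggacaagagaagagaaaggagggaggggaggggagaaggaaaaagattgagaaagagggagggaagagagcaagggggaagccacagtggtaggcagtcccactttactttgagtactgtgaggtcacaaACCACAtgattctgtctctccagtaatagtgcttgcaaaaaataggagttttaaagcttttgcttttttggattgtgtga
The same letters were found in 14% of the 32851 upstream windows in the table, and in 4 of the 9 windows of the 7 members that could be matched, those of Runx2, Bglap, Dmp1 and Enpp1. A match describes the sequence only.

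Sp7 (ENSMUSG00000060284, chr15:102356606-102367182, minus strand) was a low gene, highest on RST days 7 and 14. LST libraries held 0.518, 0.0456, 0.128 and 0.0512 CPM, and RST day 3 libraries 0.279, 0.519, 0.128 and 0.113 CPM, so the 2 groups overlapped almost fully. On day 7 the values were 1.45, 1.08, 1.83 and 1.73 CPM and on day 14 2.81, 2.03, 0.532 and 1.35 CPM, all above the highest LST library. Day 21 held 0.283, 0.524, 0.165 and 1.78 CPM and day 35 0.712, 0.216, 0.143 and 0.154 CPM. On these later days 1 library of each group stood above the other 3. Sp7 was 5.63-fold higher on day 7 than on day 3 (log2 difference 2.49 ± 0.65, adjusted p = 0.00396). Against LST the log2 difference was 2.999 ± 0.71 (adjusted p = 5.99e-04) on day 7 and 3.14 ± 0.71 (7.68e-04) on day 14. It was 1.88 ± 0.79 on day 21 (adjusted p = 0.0795) and 0.73 ± 0.90 on day 35 (0.89), neither past the test. Whether Runx2 and Sp7 differ in their course was not tested: on day 3 against LST, Runx2 was 8.52-fold and Sp7 1.42-fold higher.

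Of the other transcription factors of osteoblasts, 12 were listed and 9 tested. On day 7, 6 were higher and 2 lower than LST, where 76.1% of all genes passed (41% higher, 35.1% lower). On day 35, 1 was higher, where 2.97% of all genes passed. Twist1, a factor of early mesenchymal cells that holds Runx2 back, was 2.18 ± 0.25 higher on the log2 scale on day 7 (adjusted p = 5.79e-08), and Fosl1, an AP-1 subunit, 1.92 ± 0.24 higher (2.84e-07). Atf4, a stress-responsive factor that also drives osteocalcin, was at −0.87 ± 0.10 against LST (4.19e-08), and Cbfb, the partner of Runx2, at −0.57 ± 0.11 (6.58e-05). Between RST days 3 and 7 Cbfb rose by 0.31 ± 0.11 (adjusted p = 0.0275). The factor past the test on day 35 was Dlx3, a homeobox factor, with a log2 difference of 4.16 ± 0.60 (adjusted p = 2.59e-04). It was named after its values were seen.

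Enpp1 (ENSMUSG00000037370, chr10:24637914-24712159, minus strand) showed the largest difference from LST among the 10 genes on days 7, 14, 21 and 35. Its LST libraries held 5.56, 5.24, 7.20 and 4.66 CPM. RST libraries held 35.7, 30.0, 25.9 and 32.5 CPM on day 3, 86.1, 140.0, 103 and 113 CPM on day 7, and 124, 192, 83.3 and 145 CPM on day 14. On day 21 they held 68.0, 142, 37.3 and 92.6 CPM, and on day 35 31.4, 49.0, 26.4 and 72.1 CPM. Every RST library of every day lay above all 4 LST libraries, the lowest of them at 25.9 CPM. The log2 difference was 2.45 ± 0.36 (adjusted p = 2.81e-06) on day 3, 4.28 ± 0.37 (1.81e-09) on day 7 and 4.58 ± 0.38 (9.72e-09) on day 14. It was 3.90 ± 0.37 (2.71e-07) on day 21 and 2.97 ± 0.36 (4.18e-05) on day 35, a 7.86-fold difference between samples of the same day. Between RST days, Enpp1 rose 3.56-fold from day 3 to day 7 (log2 difference 1.83 ± 0.33, adjusted p = 1.34e-04). The later steps, 0.30 ± 0.31 to day 14, −0.68 ± 0.31 to day 21 and −0.93 ± 0.32 to day 35, did not pass.

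The upstream window of Enpp1 (GRCm38.p6, chr10:24712160-24712409, minus strand) is given because this gene differed most, with the core letters searched above in capitals, 144 bases before the start.
Enpp1 upstream: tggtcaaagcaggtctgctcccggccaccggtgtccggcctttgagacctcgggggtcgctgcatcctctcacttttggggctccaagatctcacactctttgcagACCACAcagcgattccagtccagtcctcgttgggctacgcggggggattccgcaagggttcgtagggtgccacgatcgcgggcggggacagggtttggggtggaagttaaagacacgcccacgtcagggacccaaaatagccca

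Alpl (ENSMUSG00000028766, chr4:137741733-137796384, minus strand) was lower than in LST on the first days. LST libraries held 17.1, 15.1, 21.8 and 18.6 CPM. RST libraries held 6.73, 7.51, 8.50 and 4.11 CPM on day 3 and 10.2, 9.73, 9.36 and 8.36 CPM on day 7, all below the lowest LST library. On day 14 they held 18.8, 12.6, 17.6 and 17.2 CPM, on day 21 9.62, 9.16, 15.4 and 16.7 CPM, and on day 35 15.4, 12.7, 14.96 and 15.6 CPM. From day 14 on the RST and LST ranges overlapped, and day 21 was split into a lower and a higher pair of libraries. Alpl was lower than in LST by 1.44 ± 0.20 on the log2 scale on day 3 (adjusted p = 1.36e-06) and by 0.95 ± 0.19 on day 7 (1.31e-04). The differences of −0.14 ± 0.19 on day 14, −0.52 ± 0.19 on day 21 (adjusted p = 0.0505) and −0.31 ± 0.19 on day 35 (0.597) did not pass. It rose 1.75-fold from day 7 to day 14 (log2 difference 0.81 ± 0.19, adjusted p = 0.00264). The day 7 call depends on scaling: with library totals as the only scaling, which shifts the median of all genes on day 7 from 0.08 to 0.71, the difference was −0.32 and did not pass (adjusted p = 0.109). Against that shifted median Alpl remained on the lower side. On days 3 and 7 all 10 skeletal muscle markers also passed as lower than LST, where 30.1% and 35.1% of all genes did. The part of muscle RNA in the Alpl levels, and in the ratio below, was not tested.

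Within RST both genes had their highest mean on day 14, but on days 3 and 7 they differed from LST in opposite directions. They were also read as the ratio of Alpl to Enpp1 counts within each library, which needs no scaling between libraries. The genes differ in length, so only the change of the ratio between groups is informative. In LST, Alpl counts were 3.07, 2.88, 3.02 and 3.98 times those of Enpp1. On RST day 7 the ratio was 0.119, 0.0696, 0.0912 and 0.0742, and on day 35 0.490, 0.259, 0.567 and 0.217. No RST library of any day reached the LST range. The geometric mean was 3.21 in LST and 0.211, 0.0866, 0.126, 0.162 and 0.353 on RST days 3, 7, 14, 21 and 35. The log2 differences from LST were −3.93, −5.21, −4.67, −4.31 and −3.18, each with p = 0.0286 in an exact two-sided permutation test (n = 4 and 4; Benjamini-Hochberg adjusted over the 5 days 0.0286), the smallest p that 4 against 4 allows. A ratio of 2 genes shows unequal change and not which of them moved. Enpp1 alone already separated every RST library from LST, so these p-values add little to the single-gene results. At the level of single genes, Enpp1 was higher on every RST day and Alpl passed as lower on days 3 and 7.

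**Figure D2:**
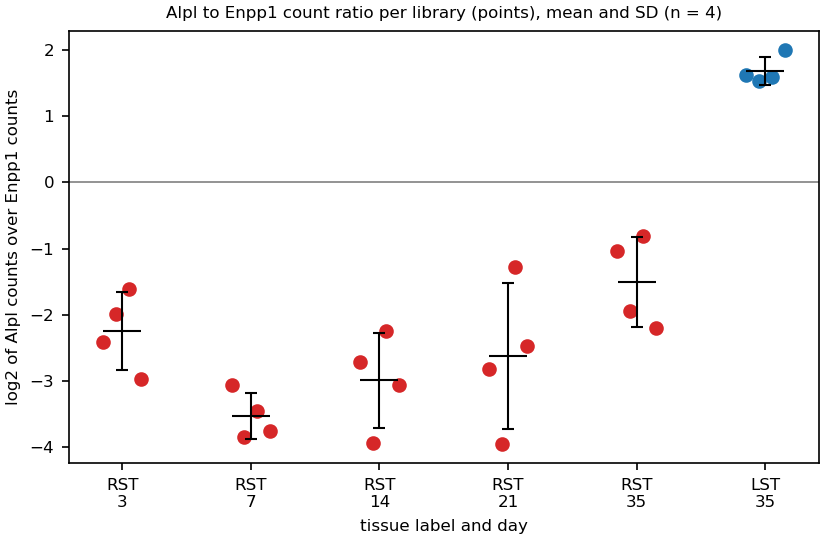
Log2 of the ratio of Alpl counts to Enpp1 counts in each joint library (points; red: RST by day, blue: LST day 35), with mean and SD (n = 4). The LST libraries lie between 1.53 and 1.99, all above 0 (equal counts), and every RST library lies below 0, lowest on average on day 7 (−3.53).

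Other genes of phosphate and pyrophosphate handling moved in both directions. Of 17 listed, 14 were tested. On day 7, 6 were higher and 8 lower than LST (all genes: 41% higher, 35.1% lower), with a median log2 difference of −0.26. On day 35, 1 was higher (all genes: 2.92%), with a median of 0.07. The gene higher on day 35 was Nt5e, which encodes the ecto-nucleotidase CD73 that acts on the AMP left by Enpp1: its log2 difference was 3.51 ± 0.34 (adjusted p = 5.88e-09) on day 7 and 2.49 ± 0.34 (1.47e-04) on day 35, and it was named after its values were seen. Ank, which helps to export pyrophosphate, was at −1.49 ± 0.11 (3.9e-10) against LST on day 7, and Phospho1, a phosphatase of early mineral formation, at −1.86 ± 0.16 (1.9e-09). From RST day 3 to day 7 the difference was −0.07 ± 0.11 for Ank (adjusted p = 0.627) and −0.999 ± 0.16 for Phospho1 (5.32e-05). The 10 skeletal muscle markers all passed as lower on day 7, as 35.1% of all genes did. Their summed level was 61651 to 99553 CPM against 202756 to 216502 CPM in LST. The part of muscle RNA in these differences was not tested. Slc37a2, a sugar phosphate carrier of macrophages and osteoclasts, was 4.22 ± 0.37 higher (1.92e-09), and Fam20a, a partner of the secretory kinase Fam20c, 2.55 ± 0.24 higher (3.63e-09).

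Mgp (ENSMUSG00000030218, chr6:136872435-136875823, minus strand) was the most abundant of the 10 genes per length in every group, at 163 CPM per kilobase on RST day 7 against 10.8 for Enpp1, 7.14 for Ibsp and 2.34 for Alpl. LST libraries held 35.1, 31.9, 41.7 and 29.6 CPM. RST libraries held 95.2, 86.6, 79.5 and 95.5 CPM on day 3, 163, 185, 221 and 203 CPM on day 7, and 152, 196, 135 and 161 CPM on day 14. On day 21 they held 87.3, 155, 69.1 and 143 CPM and on day 35 66.6, 62.3, 82.4 and 78.9 CPM. No RST library of any day overlapped LST. The log2 difference was 1.37 ± 0.19 (adjusted p = 1.54e-06) on day 3, 2.48 ± 0.20 (5.89e-10) on day 7 and 2.22 ± 0.19 (1.6e-08) on day 14. It was 1.72 ± 0.19 (1.74e-06) on day 21 and 1.07 ± 0.19 (0.00183) on day 35, a 2.10-fold difference. From day 3 to day 7 Mgp rose 2.16-fold (log2 difference 1.11 ± 0.19, adjusted p = 7.37e-05). The difference of day 35 from day 21, −0.65 ± 0.19, missed the threshold (adjusted p = 0.0514), and passed in DESeq2 (0.0214). With Enpp1, Mgp was 1 of the 2 members past the test on day 35, the enzyme that makes a mineral inhibitor and an inhibitor itself.

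Mgp and osteocalcin are carboxylated on glutamate residues in a step that depends on vitamin K. Of 5 genes of that step, 3 were higher and 2 lower than LST on day 7, where 76.1% of all genes passed. On day 35 their median log2 difference was 0.13 with the smallest adjusted p at 0.253 (Vkorc1). The highest and lowest on day 7 were Vkorc1, which recycles vitamin K, at 2.31 ± 0.23 (adjusted p = 1.04e-08), and Nqo1, a quinone reductase, at −1.39 ± 0.15 (2.08e-08).

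**Figure D3:**
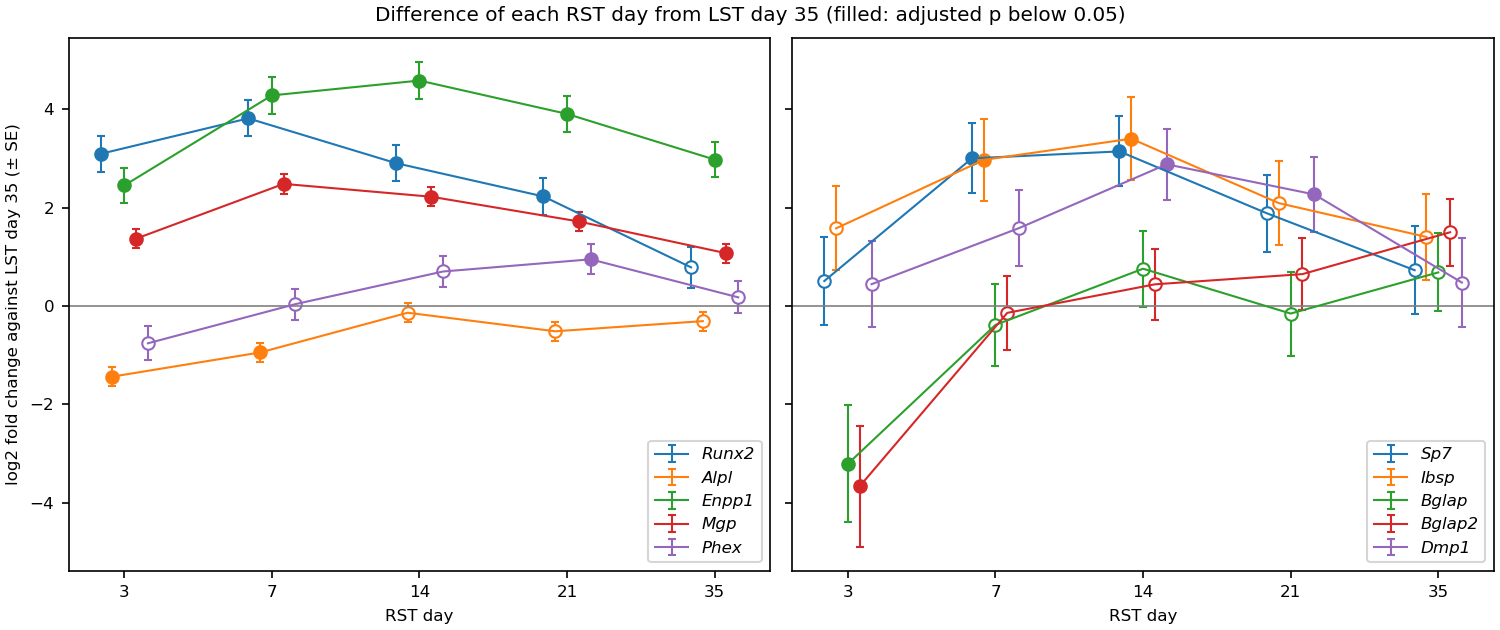
Log2 fold change of each gene in RST against LST day 35 (vertical axis, with SE from edgeR) by RST day (horizontal axis, days evenly spaced), with filled circles where the adjusted p is below 0.05. Enpp1 and Mgp stay filled on all 5 days, Runx2 on 4, and the 5 genes in the right panel have wider errors. The day 3 value of Bglap2 rests on 2 counts and depends on the fit's prior count.

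Ibsp (ENSMUSG00000029306, chr5:104299171-104311469, plus strand) had the highest level per length of the bone matrix genes among the members on every RST day (9.66 CPM per kilobase on day 14, and 0.909 in LST beside 0.951 for Bglap), and it differed widely between libraries of a group. LST libraries held 4.05, 1.19, 1.62 and 0.665 CPM, and RST day 3 libraries 3.30, 11.6, 4.40 and 3.02 CPM. On day 7 the values were 6.56, 15.4, 22.5 and 14.6 CPM, all above LST. On day 14 they were 36.7, 19.8, 3.19 and 20.2 CPM, so that replicate 3 lay within the LST range and the other 3 far above it. Days 21 and 35 held 3.68, 3.79, 2.03 and 22.6 CPM, and 13.1, 3.83, 1.29 and 1.59 CPM. The log2 difference from LST was 2.97 ± 0.84 (adjusted p = 0.00298) on day 7 and 3.40 ± 0.85 (0.00176) on day 14. It was 1.58 ± 0.86 on day 3 (adjusted p = 0.107), 2.09 ± 0.85 on day 21 (0.073) and 1.40 ± 0.87 on day 35 (0.6), none past the test. Ibsp, alone among the 10 genes, did not pass the test for any change over the RST days (adjusted p = 0.0613), and it passed when RST day 21 replicate 4 was left out (0.00656), or day 14 replicate 3 (0.0189), day 3 replicate 2 (0.0309) or day 35 replicate 1 (0.0102).

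The upstream window of Ibsp (GRCm38.p6, chr5:104299037-104299286, plus strand) is shown beside that of Bglap (chr3:88384467-88384716, minus strand) because these 2 bone matrix genes carry a TATA box motif close to the start, in the letters TATAAA or, on the other strand, TTTATA. Capitals mark it, 28 and 27 bases before the start, and in Bglap also the core letters of Runx proteins, 132 bases before.
Ibsp upstream: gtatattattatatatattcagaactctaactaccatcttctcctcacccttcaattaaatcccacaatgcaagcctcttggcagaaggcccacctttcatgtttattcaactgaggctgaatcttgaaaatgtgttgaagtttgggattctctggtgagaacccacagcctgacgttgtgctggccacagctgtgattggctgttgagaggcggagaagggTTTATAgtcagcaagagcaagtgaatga
Bglap upstream: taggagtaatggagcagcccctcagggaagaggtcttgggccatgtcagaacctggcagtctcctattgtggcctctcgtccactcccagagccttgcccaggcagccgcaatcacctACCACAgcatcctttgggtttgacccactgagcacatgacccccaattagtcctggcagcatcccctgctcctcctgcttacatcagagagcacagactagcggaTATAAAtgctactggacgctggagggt
The TATA letters were found in 12.4% of all upstream windows and in 3 of the 9 member windows, those of Ibsp, Bglap and Alpl.

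Dmp1 (ENSMUSG00000029307, chr5:104202613-104214102, plus strand), near Ibsp on chromosome 5, was highest on days 14 and 21. LST libraries held 0.236, 0.0456, 0.469 and 0.153 CPM. RST libraries held 0.0928, 0.381, 0.299 and 0.453 CPM on day 3 and 0.314, 0.795, 1.05 and 0.612 CPM on day 7, in both cases overlapping LST. On day 14 they held 3.24, 2.32, 0.665 and 0.675 CPM and on day 21 0.509, 0.524, 0.603 and 2.87 CPM, all above LST. Day 35 held 0.712, 0.216, 0.287 and 0.0513 CPM and overlapped again. The log2 difference passed on day 14, at 2.88 ± 0.72 (adjusted p = 0.00181), and on day 21, at 2.27 ± 0.76 (0.0294). On day 7 it was 1.58 ± 0.77 (adjusted p = 0.0667). The day 21 call was lost without RST day 21 replicate 4 (1.22, adjusted p = 0.254) and without LST replicate 1 (0.0569), 2 (0.0898) or 4 (0.0694).

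Bglap (ENSMUSG00000074483, chr3:88383501-88384464, minus strand) and Bglap2 (ENSMUSG00000074486, chr3:88377736-88378699, minus strand) were nearly absent on RST day 3. For Bglap, replicate 2 held 6 counts (0.208 CPM) and the other 3 day 3 libraries none, and for Bglap2 replicate 2 held 2 counts (0.0692 CPM) and the other 3 none. LST libraries held 1.27, 0.730, 0.298 and 0.0512 CPM of Bglap and 0.848, 0.228, 0.0852 and 0.102 CPM of Bglap2. Both copies were thus highest in LST replicate 1. On RST day 7, Bglap was at 0.275, 0.413, 0.425 and 0.685 CPM and Bglap2 at 0.0785, 0.318, 0.295 and 0.432 CPM, overlapping the LST ranges. Bglap was lower on day 3 than in LST by 3.21 ± 1.19 on the log2 scale (adjusted p = 0.0206). Of Bglap2, LST held 27 counts and day 3 held 2, a ratio of 15.7 at equal depth with a 95% exact interval of 3.95 to 136 that covers counting error only. In edgeR's fit its adjusted p was 0.0113.

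The summed osteocalcin copies were lower on day 3 than in LST by 3.28 ± 1.03 (adjusted p = 0.00743) and higher on day 7 than on day 3 by 2.997 ± 1.03 (0.0235). Both separate day 3 calls were lost without LST replicate 1, with log2 differences of −2.53 for Bglap and −2.52 for Bglap2, and that of Bglap also without RST day 3 replicate 4 (−2.81) or with library totals as the only scaling (−2.70). Bglap2 on day 7 held 33 counts, 14.4 times day 3 at equal depth (interval 3.68 to 124), and this step passed the test (adjusted p = 0.0229) with all libraries but not without day 3 replicate 1, 3 or 4 or day 7 replicate 4.

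From day 14 on, neither copy passed against LST. Bglap held 1.40, 1.48, 0.886 and 0.180 CPM on day 14, 0.170, 0.323, 0.165 and 1.44 CPM on day 21 and 2.56, 0.647, 0.191 and 0.359 CPM on day 35. Bglap2 held 0.532, 0.612, 0.399 and 0.135 CPM, then 0.226, 0.242, 0.165 and 1.34 CPM, then 0.759, 1.24, 0.287 and 1.33 CPM. On day 35, replicates 2, 3 and 4 held more Bglap2 than Bglap and replicate 1 held less. For Bglap2 on day 35 the log2 difference from LST was 1.497 ± 0.68 (adjusted p = 0.342), and for the sum 1.07 ± 0.69 (0.624). Bglap3 was at 0 in all LST libraries and at most 0.113 CPM elsewhere.

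Phex (ENSMUSG00000057457, chrX:157162075-157415312, minus strand) was low in all groups, with the highest library of a group at 1.44 to 2.53 times the lowest. LST libraries held 1.41, 0.912, 0.639 and 0.767 CPM. RST libraries held 0.418, 0.519, 0.684 and 0.566 CPM on day 3, 1.30, 1.02, 0.524 and 1.01 CPM on day 7 and 1.4997, 2.13, 0.842 and 1.53 CPM on day 14. On day 21 they held 1.25, 1.81, 1.43 and 2.68 CPM and on day 35 1.19, 1.24, 0.860 and 0.924 CPM. Day 21 had the highest mean, 1.79 ± 0.636 CPM (SD, n = 4), and day 3 the lowest, 0.547 ± 0.110. Against LST day 21 passed in edgeR's test, at 0.95 ± 0.31 (adjusted p = 0.0255), and it did not pass without RST day 21 replicate 2 or 4 or without LST replicate 2, 3 or 4 (0.69 to 0.94). Day 3 was lower by 0.76 ± 0.34 without passing (adjusted p = 0.0528), and passed in DESeq2 (0.0399).

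Over the RST days, 9 of the 10 genes passed the test for any change, near the background of 79.6% of all genes. Without single libraries this count ranged from 8 to 10. Bglap no longer passed without RST day 3 replicate 1 (adjusted p = 0.0593), 3 (0.0584) or 4 (0.0632). In the separate steps, 4 of 10 rose from day 3 to day 7 (Sp7, Bglap2, Mgp and Enpp1), where 41.2% of all genes passed, 18.7% as higher and 22.5% as lower. From day 7 to day 14 Alpl rose and Runx2 fell, where 38.9% of all genes passed, 20.9% as higher and 18% as lower. From day 14 to day 21 none of the 10 passed in edgeR, where 0.737% of all genes did (0.0867% higher, 0.65% lower). None passed in DESeq2, which gave no adjusted p for Sp7, Bglap, Bglap2, Dmp1 and Phex, and in edgeR 4 had an unadjusted p under 0.05 (Runx2, Sp7, Mgp and Enpp1, all lower). Without RST day 21 replicate 2, Runx2, Mgp and Enpp1 passed as lower. From day 21 to day 35 Runx2 fell, where 3.97% of all genes passed, 0.0805% as higher and 3.89% as lower. Within RST, the day of the highest mean differed by gene: day 7 for Runx2 and Mgp, day 14 for Alpl, Sp7, Ibsp, Dmp1, Enpp1 and Bglap, day 21 for Phex, and day 35 for Bglap2. For Enpp1, Sp7, Ibsp, Dmp1, Bglap and Mgp the step between days 7 and 14 did not pass, so those neighbours were not ordered beyond their spread.

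Single libraries carried much of the spread in the genes of bone matrix proteins. RST day 21 replicate 4 had the highest level of its group for all 5 of Sp7, Ibsp, Bglap, Bglap2 and Dmp1. RST day 35 replicate 1 was the highest for 4 of them (Sp7, Ibsp, Bglap and Dmp1), and so were RST day 3 replicate 2 and LST replicate 1 (Sp7, Ibsp, Bglap and Bglap2). RST day 14 replicate 3 was the lowest of its group for 7 of the 10 genes, as were day 7 replicate 1, day 21 replicate 3 and day 35 replicate 3. In all 4 of these libraries the summed levels of the chondrocyte, tendon, osteoclast and other bone matrix lists were also the lowest of their group. The low sums were not limited to skeletal lists. Fibroblast markers were also lowest in the day 7 (8450 CPM), day 14 (5150 CPM) and day 21 (2567 CPM) libraries, though not in that of day 35. The same held for the other osteocyte and vitamin K lists. Macrophage and synovial lining sums were lowest in the day 14 and day 21 libraries only. On day 14, replicate 3 held 449 CPM of chondrocyte markers against 814 to 935 CPM in the other 3 libraries, and 692 CPM of tendon markers against 827 to 1190. In LST replicate 1 and RST day 3 replicate 2 the 16 marrow precursor markers summed to 270 and 341 CPM, the highest of their groups, against 148 to 177 CPM in the other LST libraries and 136 to 210 CPM in the other day 3 libraries. In RST day 21 replicate 4 and day 35 replicate 1 the same sum was 230 and 147 CPM, the lowest of their groups. That sum includes the haemoglobin gene Hbb-bs, which lay between 74.1 and 111 CPM in LST and between 37.4 and 103 CPM on day 3. The part of blood, bone or marrow in the dissected tissue was not tested.

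**Figure D4:**
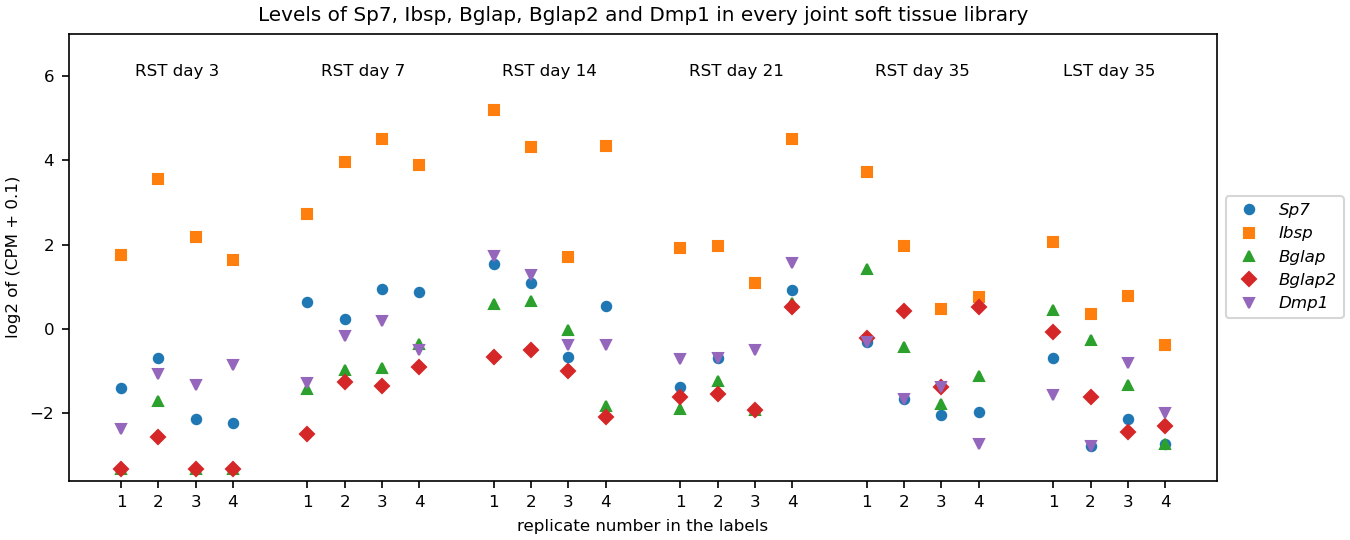
Log2 of (CPM + 0.1) of Sp7, Ibsp, Bglap, Bglap2 and Dmp1 (marker shapes and colours) in each of the 24 joint libraries, ordered by group and by the replicate number in the labels, which carries no order. All 5 genes stand highest in RST day 21 replicate 4 within that group, and Ibsp spans 0.665 to 36.7 CPM over the libraries.

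The genes named as defining for a mature osteocyte, Sost, Mepe and Fgf23, were at or near 0. Summed over 4 libraries, Sost held 1 to 6 counts per group, Mepe 1 to 7 and Fgf23 0 to 4. Dkk1, listed with the osteocyte genes but not as defining, held 1 to 9. Dmp1 and Phex were thus measured in tissue with almost no RNA of these genes. Of 12 other osteocyte genes, 7 were tested. On day 7, 5 were higher and none lower than LST, where 76.1% of all genes passed (41% higher, 35.1% lower). On day 35, 3 were higher, where 2.97% of all genes passed. Those that moved are not restricted to bone: Pdpn, a membrane protein of fibroblasts and lymphatic vessels, was 3.31 ± 0.29 higher on day 7 (adjusted p = 2.08e-09), Gja1, a gap junction protein, 3.29 ± 0.29 (1.69e-09), and Fbln7, a matrix glycoprotein, 2.19 ± 0.28 (3.33e-07).

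Other bone matrix genes were higher as well. Of 14 listed, 12 were tested. On day 7, 11 were higher than LST and none lower, where 41% of all genes were higher and 35.1% lower. The median log2 difference was 4.03 beside 0.08 for all genes. On day 35, 8 were higher, where 2.92% of all genes were. Col1a1 and Col1a2, the chains of type I collagen, were 5.85 ± 0.40 (adjusted p = 1.39e-10) and 5.16 ± 0.35 (1.28e-10) higher on day 7, and Col1a1 was still 1.78 ± 0.34 higher on day 35 (0.00318). Tnn, tenascin W, was 8.61 ± 0.57 higher on day 7 (1.15e-10), Cthrc1, a secreted protein of activated fibroblasts, 8.25 ± 0.48 (3.79e-11), and Spp1, osteopontin, which macrophages also make, 6.69 ± 0.50 (3.06e-10). These genes are shared with fibrous tissue, and 7 of the 9 fibroblast markers were higher on day 7 (all genes: 41%). Among 10 receptors through which osteoblasts are signalled to, 5 were higher and 2 lower on day 7, a share near that of all genes (76.1%). On day 35, 1 was higher (all genes: 2.92%). Pth1r, the parathyroid hormone receptor, was 2.86 ± 0.26 higher on day 7 (2.92e-09), and Cdh11, a cadherin of mesenchymal and synovial cells, 5.52 ± 0.39 (1.9e-10).

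Markers of cartilage, osteoclasts, tendon, macrophages and mural cells were also mostly higher than LST on day 7. Of 18 chondrocyte markers, 15 were tested. On day 7, 13 were higher and 1 lower than LST, where 41% of all genes were higher and 35.1% lower. On day 35, 4 were higher, against 2.92% of all genes. The summed level of the list was 845 to 941 CPM on day 7, 449 to 935 CPM on day 14 and 231 to 264 CPM in LST. Acan, the main cartilage proteoglycan, was at 153 ± 28.6 CPM (SD, n = 4) on day 7 and 0.444 ± 0.194 CPM in LST. Col10a1, the collagen of hypertrophic cartilage, was at 0.332 ± 0.154 CPM on day 7 and 4.74 ± 4.60 CPM on day 14, a log2 difference from LST of 5.43 ± 1.02 on day 14 (adjusted p = 1.3e-04). Of 13 osteoclast markers, all tested, 10 were higher and 1 lower on day 7, and 2 were higher on day 35. All 6 tendon markers were higher on day 7, as were 7 of 8 macrophage markers (1 lower) and 6 of 8 mural and smooth muscle markers (2 lower). The shares of all genes are those just given. Ctsk, a collagen-cleaving protease, was at 286 ± 65.2 CPM on day 7 and 8.14 ± 1.89 CPM in LST. Of 16 marrow precursor markers, 13 were tested and 1 passed on day 7, Pf4, which macrophages also express. On that day 76.1% of all genes passed. Of the genes named as defining for this list, Mpo and Elane stayed between 0 and 3.81 CPM in all libraries. The haemoglobin gene Hbb-bs, also named, lay between 37.4 and 139 CPM. The part of these cell types in the levels of the 10 genes was not tested.

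The genes whose profile was most like each member's were found as the smallest root mean square difference in centred log2 CPM over the 24 joint libraries, among 13733 named protein-coding genes. These are descriptions over libraries that share groups and depth. For Sp7 the nearest was Ibsp, with a difference of 0.60, then Panx3 (0.63) and Col11a2 (0.65), and for Ibsp they were Sp7, Panx3 (0.68) and Col11a2 (0.93). For Runx2 they were Csgalnact1 (0.27), Efemp2 (0.29) and Emilin1 (0.30), and for Mgp Lpar1, Serpinf1 and Marveld1 (0.18 to 0.19). Enpp1 was nearest to Anxa8 (0.37), the cartilage and tendon matrix gene Comp (0.38) and Nt5e (0.39). Alpl was nearest to Tmem204 (0.27), Lmcd1 (0.27) and Slc9a3r2 (0.28), where the root mean square of its own profile was only 0.57. Bglap was nearest to its copy Bglap2 (0.77), and Bglap2 to Ccdc3 (0.74). Dmp1 was nearest to Col6a5 (0.77) and Phex to Dll4 (0.37), where the root mean square of the profiles themselves was 1.19 for Dmp1 and 0.61 for Phex.

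In the lymph nodes, 4 of the 10 genes were expressed well enough to test. Enpp1 lay between 33.4 and 43.0 CPM in the 18 libraries, Mgp between 12.3 and 53.5, Runx2 between 13.4 and 29.6 and Alpl between 4.05 and 12.4. Ibsp and Bglap2 were at 0 in 17 of 18 libraries and Dmp1 in 11 of 18, and Sp7 and Bglap reached at most 3 and 8 counts in a library. Implant and NoImplant nodes were compared with edgeR's test over 17895 genes. By label these groups differ in both implant and surgery, which cannot be told apart. On day 7 none of the 4 passed, where 4.27% of all genes did (2.44% higher, 1.84% lower), none had an unadjusted p under 0.05 and none passed in DESeq2. On day 14 Mgp was higher, where 17.6% of all genes passed, 8.16% as higher and 9.49% as lower. Its 3 Implant libraries held 50.7, 50.6 and 53.5 CPM and its 3 NoImplant libraries 34.4, 33.5 and 29.6 CPM, without overlap, a log2 difference of 0.66 ± 0.15 (adjusted p = 0.0149). The call was lost without Implant replicate 3 or NoImplant replicate 3. ContraImplant nodes held 39.6, 39.7 and 27.0 CPM. For Mgp, the difference of Implant from NoImplant nodes was −0.14 ± 0.15 on day 7. Its change to day 14 was 0.80 ± 0.21 and did not pass (adjusted p = 0.584, unadjusted 0.00263).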

How the data were processed

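Count tables were read, of 24 libraries from joints and 18 from nodes. Per the labels' protocols, tissue was flash frozen, RNA was taken with Trizol (joint) or RLT (nodes), and libraries were made with the NEBNext Ultra II kit. Per the submitters' processing notes, fastp, STAR and mm10 were used. The deposited values are raw counts for each gene. For the counter, its annotation, strand setting and handling of shared reads: not given in the sources used here. Symbols came from GENCODE M21 for 36591 of 36604 joint genes, and upstream sequences from the RefSeq table for 7 of the 10 members.

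Counts were fitted with edgeR 4.0.16 in R 4.3.3 (filterByExpr with a minimum count of 10, TMM, quasi-likelihood test, Benjamini-Hochberg adjustment), with all 6 joint groups in 1 fit and 12 Implant and NoImplant node libraries in another. In simulated counts on 15805 genes for RST day 7 against LST, 66 of 100 genes changed 2-fold and 100 of 100 changed 4-fold were recovered. The changed genes were drawn above a mean count that Sp7, Bglap, Bglap2 and Dmp1 do not reach. Every simulated gene had the same spread. The recovery therefore does not carry over to those low genes or to widely scattered ones such as Ibsp. Alternatives were DESeq2 1.42.0, RLE scaling, library totals, no filter, 2 groups only, a replicate block and leaving out each library. All libraries of a group differed by more than counting noise.

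The members, gene lists and tests were chosen with earlier results of these data known. Named were all 10 members, from each other list up to 4 genes with the smallest adjusted p for any change over RST days and the defining genes of a cell type. SE is that of the log2 fold change.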

Additional observations from a re-analysis of the deposited data

Results flagged for a closer look

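In 8 of 60 combinations of gene and joint group, 1 library stood apart from the other 3 by more than Dixon's critical gap for 4 samples. For normal values chance gives about 1 in 20, which does not carry over to these flags: they come from 3 libraries, Bglap and Bglap2 share reads, and on day 3 the other 3 libraries had no osteocalcin count, which makes the gap the whole range at any value. All 8 were the highest library of their group. RST day 21 replicate 4 stood apart for Ibsp (22.6 CPM), Bglap (1.44 CPM), Bglap2 (1.34 CPM) and Dmp1 (2.87 CPM). RST day 3 replicate 2 stood apart for Ibsp (11.6 CPM), Bglap (0.208 CPM) and Bglap2 (0.0692 CPM). RST day 35 replicate 1 stood apart for Sp7 (0.712 CPM).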

How the results depend on the processing

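Of 665 values under alternatives other than leaving out 1 library, 597 kept direction and side of the threshold (counts, stayed within 1.5 times), 40 came to pass, 10 no longer passed, 8 counts moved by over 1.5 times and 10 changed sign. With each joint library left out in turn, a gene's result in a joint comparison no longer passed in 27 cases, came to pass in 30 and changed sign in 22. Single genes in nodes are not in these totals. None of these changes of sign was in a result that passed with all libraries. The cause of these changes was not tested, apart from alternatives that use fewer samples. On day 35 against LST, 2 genes passed under every library left out. The number of the 10 genes past the test moved on day 21 against LST (main 5) to 8 with DESeq2 and 3 with only the 2 groups compared, and without single libraries it ranged from 3 to 8. For day 7 against day 3 (main 4) it was 7 without a filter and 7 with only the 2 groups. For day 35 against day 21 (main 1) it was 2 with DESeq2, 3 without a filter and 0 with only the 2 groups, and 0 to 3 without single libraries. Without single libraries it was 1 to 3 for day 14 against day 7, 0 to 3 for day 21 against day 14 and 0 to 1 in nodes on day 14.

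Same-numbered RST and LST libraries of day 35 correlated at 0.083, 0.139, 0.091 and 0.191 in their deviations from the group means. Those of different number lay between −0.215 and 0.116. The labels name no animal for joint libraries, and these values cannot decide whether same-numbered libraries share one. The main fit did not pair them, so its day 35 results may leave out a pairing. Of the 4 RST libraries, 3 correlated best with their own number. With only the 2 groups and a replicate block, an alternative added after seeing the data, 4 genes passed on day 35 in place of 2. With the replicate block the Alpl to Enpp1 log2 ratio differences stayed at −3.93, −5.21, −4.67, −4.31 and −3.18 with an exact p of 0.125, the smallest that 4 pairs allow. The block gave 0.014 for Bglap on day 21 against LST and −0.019 for Sp7 on day 14 against day 7.

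Library totals as the only scaling, also added later, moved the median log2 difference of all genes from LST on days 3, 7, 14 and 21 to 0.61, 0.71, 0.33 and 0.14. Genes called higher and lower were then 10251 and 1813 on day 3 (main 6234 and 4867), 10633 and 2195 on day 7 (main 6620 and 5667), 7762 and 1096 on day 14 (main 5387 and 3963) and 1315 and 7727 for day 14 against day 7 (main 3377 and 2907). Under it the log2 difference from LST was 0.25 for Bglap and 0.48 for Bglap2 on day 7 and 0.14 for Alpl on day 14, and from day 7 to day 14 it was −0.18 for Sp7 and −0.013 for Enpp1. For Phex on day 7 against LST it was −0.00076 with DESeq2 and −0.0013 with RLE scaling. Without both day 35 libraries of number 1, Dmp1 on day 35 was at −0.30.

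Values that did not pass also changed sign without single libraries. Against LST these ranged from −0.13 to 1.72 for Sp7 on day 3, and on day 7 from −0.75 to 0.29 for Bglap, −0.48 to 1.01 for Bglap2 and −0.14 to 0.30 for Phex. On day 21 they ranged from −1.36 to 0.52 for Bglap and −0.55 to 1.80 for Bglap2, and on day 35 from −0.13 to 1.94 for Sp7, −0.58 to 1.36 for Bglap and −0.30 to 1.14 for Dmp1. From day 7 to day 14 they ranged from −0.20 to 0.43 for Sp7 and −0.033 to 0.79 for Ibsp, from day 14 to day 21 from −0.98 to 0.49 for Bglap2 and −0.0053 to 0.48 for Phex, and from day 21 to day 35 from −1.86 to 0.65 for Ibsp and −0.42 to 2.04 for Bglap. Summed over a group, Sp7, Bglap, Bglap2 and Dmp1 held 2 to 175 counts and Phex 55 to 150, which limits their precision.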
